A study of Mus musculus with 16 samples.

Results

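Cdk20, Mak, Mok, Nek1, Nek8 and Ttbk2 encode protein kinases that act on or at the base of the cilium. These 6 genes, out of 21887 protein-coding genes examined, were taken by name, and their RefSeq bodies on the mm10 assembly were searched for peaks of the transcription factors Foxn3, Foxn4 and Rfx3 inside the gene or within 10 kb of either end. The peaks came from CUT&RUN, in which an antibody directs micrococcal nuclease to a chromatin protein and the DNA cut free is sequenced. The material was retina of CD-1 mice, an outbred strain, at embryonic day 16; retinas were pooled and dissociated, and about 300000 cells were used for each assay. The antibody libraries numbered 4 for Foxn3 (from 2 experiments), 2 for Foxn4 and 2 for Rfx3. Matched immunoglobulin G (IgG) controls were from rabbit for Foxn3 (4 libraries) and Rfx3 (2), and from mouse for Foxn4 (2). Digestion lasted about 12 h for Foxn4 and mouse IgG and 1 h for all others, so antibody and protocol cannot be told apart in any contrast with Foxn4. Each antibody is represented by a single peak list, of 2794 peaks for Foxn3, 2956 for Foxn4 and 3981 for Rfx3. The sources used here do not say how libraries were combined. Replicate spread is accordingly unknown for every value, IgG background was not analysed here, the sequencing depth is unknown, and no test was made over the 6 genes.

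A primary cilium is a microtubule-based projection that grows from a basal body and serves as a signalling antenna; in photoreceptors it is elaborated into the outer segment. Its growth is started and its length is set in part by kinases. Ttbk2 is recruited to the basal body by Cep164 and is needed to begin assembly of the axoneme. Cdk20, also named Ccrk, activates kinases of the Mak family, to which Mak and Mok belong and which restrain cilium length; Mak is needed for normal photoreceptor cilia. Nek1 and Nek8 are NIMA-related kinases whose mutation in mice causes cystic kidneys, and Nek8 resides in the proximal part of the cilium with inversin. RFX factors such as Rfx3 are regulators of ciliary genes and bind the X-box, an inverted repeat. Foxn3 and Foxn4 are forkhead factors, and members of this subfamily can recognise the sequence GACGC, which differs from the usual forkhead core.

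Promoter sequences are shown for the 3 genes that had a peak, since the peaks lay there. They are RefSeq sequences of GRCm38.p6, the assembly of mm10, from 250 bases before the annotated start of transcription to the first 30 bases after it, written 5′ to 3′ on the strand of the gene. Capitals mark matches on either strand to the X-box with at most 1 mismatch and to GACGC. The windows are chr13:64432303-64432582 on the plus strand for Cdk20, chr12:110840910-110841189 on the minus strand for Mok and chr13:41079677-41079956 on the minus strand for Mak.
Cdk20: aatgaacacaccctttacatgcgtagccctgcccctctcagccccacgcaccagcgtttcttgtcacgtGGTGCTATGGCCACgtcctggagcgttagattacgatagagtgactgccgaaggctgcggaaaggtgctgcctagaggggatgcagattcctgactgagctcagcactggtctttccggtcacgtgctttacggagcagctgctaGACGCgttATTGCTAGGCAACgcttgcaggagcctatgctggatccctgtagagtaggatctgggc
Mok: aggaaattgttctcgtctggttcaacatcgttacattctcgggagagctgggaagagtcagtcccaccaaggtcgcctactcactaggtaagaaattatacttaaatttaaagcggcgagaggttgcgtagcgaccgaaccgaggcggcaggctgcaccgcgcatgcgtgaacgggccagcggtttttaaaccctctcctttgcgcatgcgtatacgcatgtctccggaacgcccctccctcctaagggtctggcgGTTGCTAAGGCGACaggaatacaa
Mak: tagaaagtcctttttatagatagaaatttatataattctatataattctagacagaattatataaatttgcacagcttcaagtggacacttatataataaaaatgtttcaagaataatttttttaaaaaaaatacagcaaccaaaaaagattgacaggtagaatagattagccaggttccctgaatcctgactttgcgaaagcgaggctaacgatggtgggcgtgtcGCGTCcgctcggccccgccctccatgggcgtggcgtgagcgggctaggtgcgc

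Cdk20, Mok and Mak had peaks, and Nek1, Nek8 and Ttbk2 had none. Cdk20 had a peak in every list, Mok had a Foxn3 and an Rfx3 peak, and Mak had an Rfx3 peak alone. All 6 peaks lay within 1 kb of a gene end, at the annotated start of transcription, and no peak lay deeper in a gene body or elsewhere in the 10 kb flanks. Near an end (1 kb), Foxn3 was thus present at 2 of the 6 genes, against 8.82% of all protein-coding genes. Foxn4 was present at 1, against 4.84%, and Rfx3 at 3, against 10.6%. With the body and 10 kb flanks included, the counts for the 6 genes stayed at 2, 1 and 3, while the shares of all genes rose to 15.2% for Foxn3, 10.5% for Foxn4 and 19.0% for Rfx3. These 6 genes were chosen with results of these data known, so the counts are a description, and no excess was tested.

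**Figure D1:**
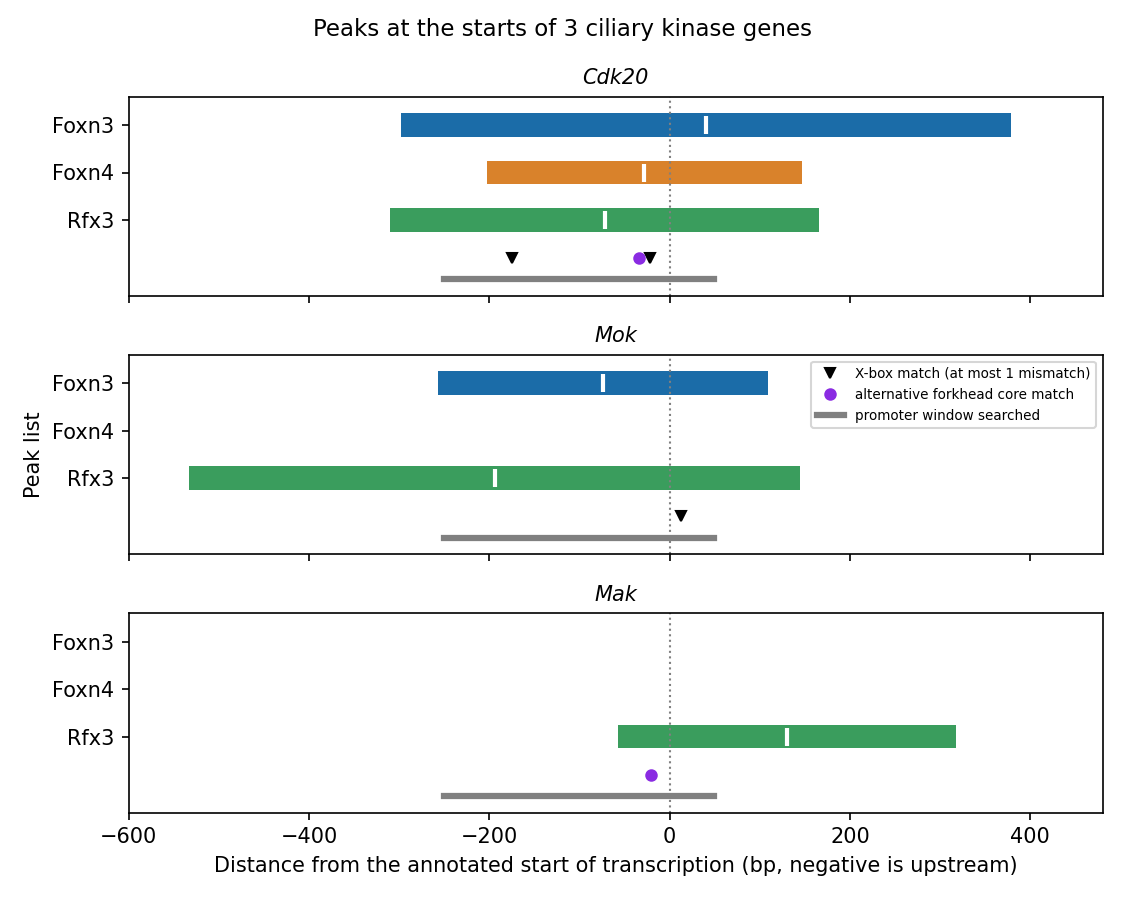
Peaks of Foxn3, Foxn4 and Rfx3 at Cdk20, Mok and Mak, by distance from the annotated start of transcription in bp (negative is upstream). Bars span the peaks, white ticks mark midpoints, triangles mark X-box matches and circles mark GACGC, the alternative forkhead core, in the promoter window drawn in grey. The 6 bars all cover the start, and the Mak peak lies mostly downstream of it.

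Cdk20 (gene 105278; chromosome 13, 64432319 to 64439722, plus strand) was the gene with every factor. Its Foxn3 peak spanned 64432255 to 64432931 and had a score of 251, the authors' own value per peak, whose scaling is not stated. This exceeded 96.6% of the Foxn3 list (95% Wilson interval 95.8% to 97.2%). The rank within the deposited list is exact. The intervals here treat the list as a sample of peaks and measure neither replicate spread nor ties. The Rfx3 peak, at 64432243 to 64432719, had a score of 342 and exceeded 89.1% of its list (88.1% to 90.1%). The Foxn4 peak, at 64432350 to 64432700, had a score of 8 and exceeded 57.4% of its list (55.6% to 59.2%). That score was held by 300 Foxn4 peaks, tied at 960th from the top of 2956, so its position among them is not resolved. Within their own lists the Foxn3 and Rfx3 peaks of Cdk20 therefore stood near the top and the Foxn4 peak slightly above the middle. Scores were not compared in size between lists.

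The Foxn4 peak of Cdk20 lay wholly inside the other 2 peaks. Its 351 bp covered 51.8% of the Foxn3 peak and 73.6% of the Rfx3 peak, and the Foxn3 and Rfx3 peaks overlapped by 465 bp. Relative to the annotated start at 64432553, the Rfx3 midpoint was 72 bp upstream, the Foxn4 midpoint 28 bp upstream and the Foxn3 midpoint 40 bp downstream. The Foxn3 and Rfx3 midpoints were 112 bp apart, farther than the median of 47 bp for all overlapping Foxn3 and Rfx3 peaks (quartiles 21 and 91 bp). The Foxn3 peak was also wide, at 677 bp against a list median of 384 bp, and reached 378 bp downstream of the start. Peaks of every list at a gene end occurred at 3.06% of all protein-coding genes. A non-coding gene, 1700015C15Rik, runs in the opposite direction on the minus strand and has an annotated body that reaches to 64432436, within 45 to 157 bp of the 3 peak midpoints. No other protein-coding gene lay within 1 kb, but the peaks are shared with this non-coding gene.

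Mok (gene 26448; chromosome 12, 110807798 to 110840962, minus strand) had the highest-ranking peaks of the 6 genes in both lists that it entered. Its Foxn3 peak, at 110840830 to 110841196, had a score of 938, the 4th highest of the 2794 Foxn3 peaks (above 99.9%, 99.6% to 99.9%). Its Rfx3 peak, at 110840794 to 110841472, had a score of 1084 and ranked 56th of 3981 (above 98.6%, 98.2% to 98.9%). The Foxn3 peak was 367 bp wide and lay wholly inside the Rfx3 peak of 679 bp, with the midpoints 120 bp apart. Measured from the annotated start at 110840939, the Foxn3 midpoint was 74 bp upstream and the Rfx3 midpoint 194 bp upstream. The Rfx3 peak extended 533 bp upstream and 145 bp downstream of the start.

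No Foxn4 peak lay within 10 kb of Mok; the nearest was 88 kb from the gene, at 110719621 to 110720007, and exceeded 5.18% of its list. Of the 142 Foxn3 peaks within 5 percentage points of Mok's in rank, 36.6% overlapped a Foxn4 peak (29.1% to 44.8%), and all 142 overlapped an Rfx3 peak. Among all protein-coding genes, 4.5% had Foxn3 and Rfx3 but not Foxn4 within 1 kb of an end. Mok also faces a non-coding gene, 4921507G05Rik (110841029 to 110843804, plus strand), across these peaks. The Foxn3 midpoint lay 16 bp from the end of that gene and 51 bp from the end of Mok, and the Rfx3 midpoint lay 104 and 171 bp away. Both midpoints were thus outside Mok and closer to the non-coding gene, and the Rfx3 midpoint lay inside it. No other protein-coding gene lay within 1 kb.

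Mak (gene 17152; chromosome 13, 41025007 to 41079706, minus strand) had an Rfx3 peak at 41079389 to 41079763, with a score of 99. It exceeded 60.2% of the Rfx3 list (58.7% to 61.7%), lower than the Rfx3 peaks of Cdk20 and Mok. At 375 bp it was also narrower than the list median of 469 bp. Its midpoint lay 130 bp downstream of the annotated start, whereas the Rfx3 midpoints of Cdk20 and Mok lay upstream, and its upstream edge was 57 bp before the start. No other annotated gene, coding or non-coding, had an end within 1 kb of that midpoint or a body over it. Of the 382 Rfx3 peaks within 5 percentage points of Mak's in rank, 47.4% overlapped a Foxn3 peak (42.4% to 52.4%) and 13.6% a Foxn4 peak (10.5% to 17.4%). A gene end with Rfx3 alone occurred at 2.52% of protein-coding genes. The nearest Foxn3 peak was 23.9 kb from Mak, inside Pak1ip1 and 79 bp from an end of that gene, and the nearest Foxn4 peak was 397 kb away. A second annotated start of Mak, at 41070465 inside the gene, had no peak of any list over its promoter window.

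**Figure D2:**
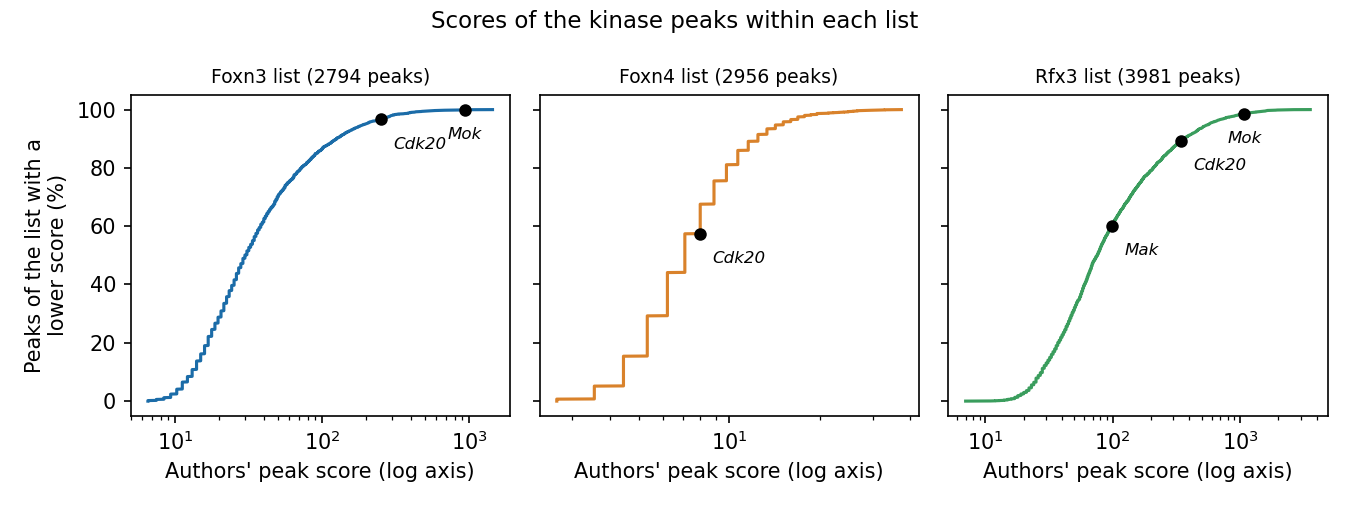
Authors' peak score (log axis) against the share of peaks in the same list with a lower score, 1 panel per list; curves are whole lists and black points are the kinase peaks. Mok stands at 99.9% in the Foxn3 list and 98.6% in the Rfx3 list, Cdk20 at 96.6%, 57.4% and 89.1% in the Foxn3, Foxn4 and Rfx3 lists, and Mak at 60.2% in the Rfx3 list.

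For each bound gene, the 2 other protein-coding genes with gene-end peaks in the same lists and the most similar score ranks were identified, by the distance between ranks in percentage points. For Mok these were Cfap298, a gene of dynein assembly and motile cilia, with ranks of 99.6% for Foxn3 and 98.5% for Rfx3 (distance 0.249 over 2 lists), and Nek2, a centrosomal kinase, with 99.4% and 99.2% (distance 0.74). For Cdk20 they were Ttc29, a gene of the sperm flagellum, with ranks of 96.1%, 57.4% and 95% for Foxn3, Foxn4 and Rfx3 (distance 5.87 over 3 lists), and Wwox, an oxidoreductase gene, with 90.2%, 57.4% and 88.5% (distance 6.44). For Mak the measure rested on the Rfx3 list alone, in which 14 peaks shared its score; the first such genes in alphabetical order were 6330403K07Rik and Bbs1, a BBSome subunit gene. The Foxn4 rank of 57.4% at Cdk20, Ttc29 and Wwox is the score held by 300 Foxn4 peaks. The genes named were the nearest of 984 candidates for Mok, 668 for Cdk20 and 551 for Mak. The ranks are a description over 1 to 3 lists.

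Nek1, Nek8 and Ttbk2 had no peak of any list in the gene body or within 10 kb, as did 76.1% of all protein-coding genes, while 87.2% had none within 1 kb of an end. Nek1 (gene 18004; chromosome 8, 60993157 to 61131349) and Ttbk2 (gene 140810; chromosome 2, 120732816 to 120850584, minus strand) were the longest of the 6 genes, at 138 kb and 118 kb, longer than 92.7% and 91% of protein-coding genes. Nek8 (gene 140859; chromosome 11, 78166106 to 78176695, minus strand) was 10.6 kb long. For Nek8 the nearest Foxn3 peak, at 78189390 to 78189575, was 12.8 kb from the gene, just outside the flank. It lay inside Rab34, which encodes a ciliary small GTPase, 1055 bp from an end of that gene, and exceeded 61.4% of the Foxn3 list. The nearest Rfx3 and Foxn4 peaks to Nek8 were 125 kb and 184 kb away, at Spag5 and Phf12. With a 25 kb flank, the Foxn3 peaks inside Rab34 and Pak1ip1 raised the Foxn3 count from 2 to 4 of the 6 genes. The share of all protein-coding genes was not computed at that flank. At 10 kb it was 15.2%.

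For Nek1 the nearest Foxn3 peak was 3481 kb away, near Hmgb2. The nearest Rfx3 and Foxn4 peaks, 38.3 kb and 53.7 kb away, both lay inside Clcn3, the neighbouring chloride channel gene. Ttbk2 was far from peaks of every list, with the nearest Foxn3 and Rfx3 peaks 421 kb away, both inside Trp53bp1, and the nearest Foxn4 peak 563 kb away. The Foxn3 and Rfx3 peaks inside Trp53bp1 ranked high, above 94.7% and 98.4% of their lists. A peak missing from a list says only that none passed the authors' threshold, which is not stated, and does not show that the factor is absent.

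**Figure D3:**
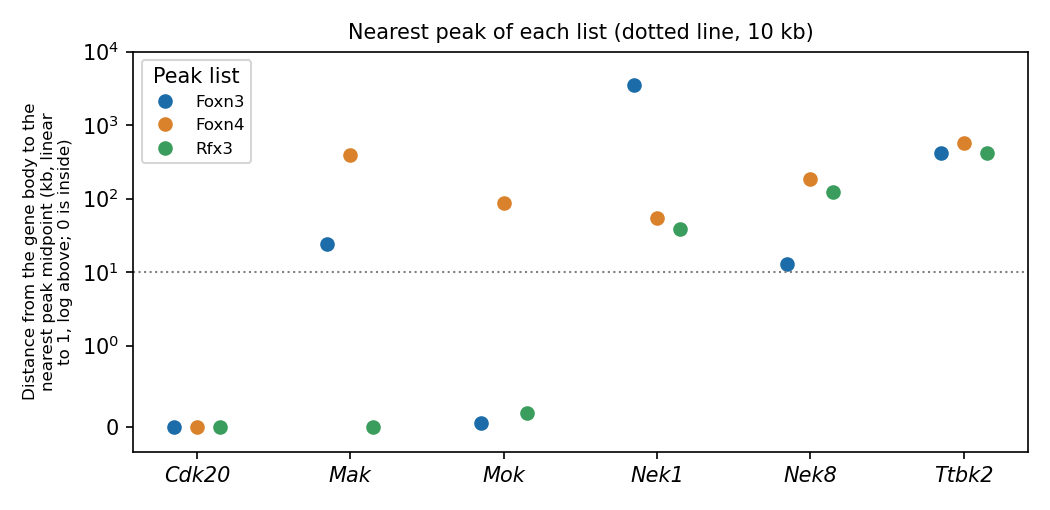
Distance in kb from the body of each kinase gene to the nearest peak midpoint of each list (linear to 1 kb, log above; 0 is inside the gene); the dotted line is the 10 kb flank. Points for Cdk20, Mok in Foxn3 and Rfx3, and Mak in Rfx3 lie under 1 kb, and the Nek8 Foxn3 point lies just above the line at 12.8 kb.

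Sequence matches were counted in 300-base promoter windows, from 250 bases before to 50 bases from the start on, which the reference holds for 5 of the 6 genes; Nek1 was not searched. The X-box was read as inverted arms separated by 0 to 3 bases, on both strands. Of the 5 genes, Mok alone held a match without a mismatch, as did 1.5% of 21263 promoters of protein-coding genes. The share was 8.63% of the 1529 promoters whose start lay in a Foxn3 peak, 9.34% of the 1971 whose start lay in an Rfx3 peak and 3.06% of the 654 whose start lay in a Foxn4 peak. The Mok match, printed above as GTTGCTAAGGCGAC, reads GTCGCCTTAGCAAC on the opposite strand. It began 6 bases after the annotated start, inside both peaks of Mok, 87 bp from the Foxn3 midpoint and 207 bp from the Rfx3 midpoint.

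Cdk20 held the single-arm sequence GTTGCC, on the minus strand, within a near match to the X-box. That match, ATTGCTAGGCAAC in the printed sequence and GTTGCCTAGCAAT on the opposite strand, began 28 bases before the start and lay inside all 3 peaks. It was centred 6 bp from the Foxn4 midpoint, 50 bp from the Rfx3 midpoint and 62 bp from the Foxn3 midpoint. A second near match began 181 bases before the start. At up to 1 mismatch, a setting chosen after the letters had been seen, Cdk20 and Mok had a match, as did 11.3% of all promoters, 34.7% of those with their start in a Foxn3 peak, 34.1% of those with it in an Rfx3 peak and 17% of those with it in a Foxn4 peak. GTTGCC itself, which can be an arm of the X-box, was in 12.6% of all promoters, 27.8% of those with their start in a Foxn3 peak, 27.8% for Rfx3 and 16.8% for Foxn4. No X-box with up to 1 mismatch was found in the Mak, Nek8 or Ttbk2 windows, and 107 bases of the Mak window overlapped its Rfx3 peak, so most of that peak was not searched.

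GACGC was found in Cdk20, Mak, Nek8 and Ttbk2 and not in the Mok window, although Mok had the highest-ranking Foxn3 peak of the 6 genes. The 300-base Mok window lay inside its Foxn3 peak of 367 bp and its Rfx3 peak of 679 bp, so part of each was not searched. It was in 33.4% of all promoters, 57.8% of those with their start in a Foxn3 peak, 56.9% of the 654 with it in a Foxn4 peak and 55.3% of those with it in an Rfx3 peak. At Cdk20 it began 36 bases before the start, inside all 3 peaks, and was centred 6 bp from the Foxn4 midpoint. At Mak it was in both windows, inside the Rfx3 peak at the bound start and outside every peak at the second start. Mak thus carried it without a Foxn3 or Foxn4 peak. Nek8 and Ttbk2 carried GACGC without a peak of any list, and their stretches are shown for comparison, with GACGC in capitals. They lie at chr11:78176705-78176761 and chr2:120850495-120850535, both read on the minus strand.
Nek8: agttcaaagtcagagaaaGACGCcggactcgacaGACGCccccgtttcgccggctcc
Ttbk2: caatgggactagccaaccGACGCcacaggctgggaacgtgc
The usual forkhead core TGTTTA was in none of the 7 windows of these 5 genes and in 11.5% of all promoters, 7.46% of those with their start in a Foxn3 peak, 5.66% for Foxn4 and 7.1% for Rfx3. A match of letters is not a binding site, and no match says only that the letters are not in the window.

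Other genes of the same pathway were taken from 2 lists. Of 29 other ciliary and centrosomal kinases, 10 (34.5%) had a Foxn3 peak within 1 kb of a gene end. An Rfx3 peak was there at 11 (37.9%) and a Foxn4 peak at 1 (3.45%), and 17 had none there. Among all protein-coding genes these shares were 8.82%, 10.6% and 4.84%, and 87.2% had none. With the body and 10 kb flanks included, Foxn3 was at 14, Rfx3 at 16 and Foxn4 at 2 of the 29. The shares of all genes were then 15.2%, 19.0% and 10.5%. Foxn3 and Rfx3 without Foxn4 at a gene end, the combination at Mok, occurred at 8 of the 29, against 4.5% of all protein-coding genes. Nek11 and Stk36 were among these 8. Another protein-coding gene has an end within 1 kb of gene-end peaks of each, Aste1 for Nek11 and Rnf25 for Stk36. Prkaca, a catalytic subunit of protein kinase A, was the kinase with every factor at a gene end, as were 3.06% of all protein-coding genes. All 3 of its peaks ranked low in their lists, above 10.8%, 29.3% and 7.91% of Foxn3, Foxn4 and Rfx3 peaks. Kinases with a gene-end peak in a single list were Cdkl2 (Rfx3), Cdkl3 (Foxn3) and Csnk1d (Rfx3). A lone Rfx3 peak at a gene end is the combination of Mak, found at 2.52% of all protein-coding genes. With the body and 10 kb flanks included, Cdkl3 had peaks of every list. The Rfx3 count of these kinases was 7 with only peaks at or above the median score of their list, a setting at which the share of all genes was not computed.

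The second list held 14 partners and substrates of ciliary kinases, mostly of the 6 genes but with Kif24 as a substrate of Nek2. Of these 14, a gene end had a Foxn3 peak within 1 kb at 4 (28.6%), a Foxn4 peak at 4 (28.6%) and an Rfx3 peak at 5 (35.7%). No gene-end peak was found at 9. Among all protein-coding genes these shares were 8.82%, 4.84% and 10.6%, and 87.2% had none. With the body and 10 kb flanks included, Foxn3 was at 8, Foxn4 at 5 and Rfx3 at 8 of the 14. The shares of all genes were then 15.2%, 10.5% and 19.0%. Every factor was at a gene end of 3 of the 14, against 3.06% of all protein-coding genes. These included Tbc1d32, which encodes a partner of Cdk20, and Kif24, which encodes a kinesin. Another protein-coding gene, Nudt2, has an end within 1 kb of the Kif24 peaks. The Foxn4 peak of Tbc1d32 was at the lowest score of its list, with 0% of peaks lower, while its Foxn3 and Rfx3 peaks exceeded 67.5% and 65% of theirs. At Kif24 the Foxn4 peak also ranked low, above 5.18% of its list, while the Foxn3 and Rfx3 peaks exceeded 92.9% and 82.3% of theirs. Invs, which encodes inversin and was named after its values were seen, had gene-end peaks of Foxn4 and Rfx3, shared with Erp44. It also had a Foxn3 peak in the body or within 10 kb. The gene-end peaks of Invs exceeded 44.1% of the Foxn4 list and 33% of the Rfx3 list. The share of all genes with that pair of factors at a gene end was not computed. Invs is 1 of the 14 genes, and 9 of them had no gene-end peak. Nek8 itself had no peak of any list in the body or within 10 kb, as did 76.1% of all protein-coding genes. At a 2 kb distance the Foxn3 and Rfx3 counts of this list were 7 and 8. With only peaks at or above the median score, the Foxn4 count was 2. The shares of all genes were not computed at these settings.

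**Figure D4:**
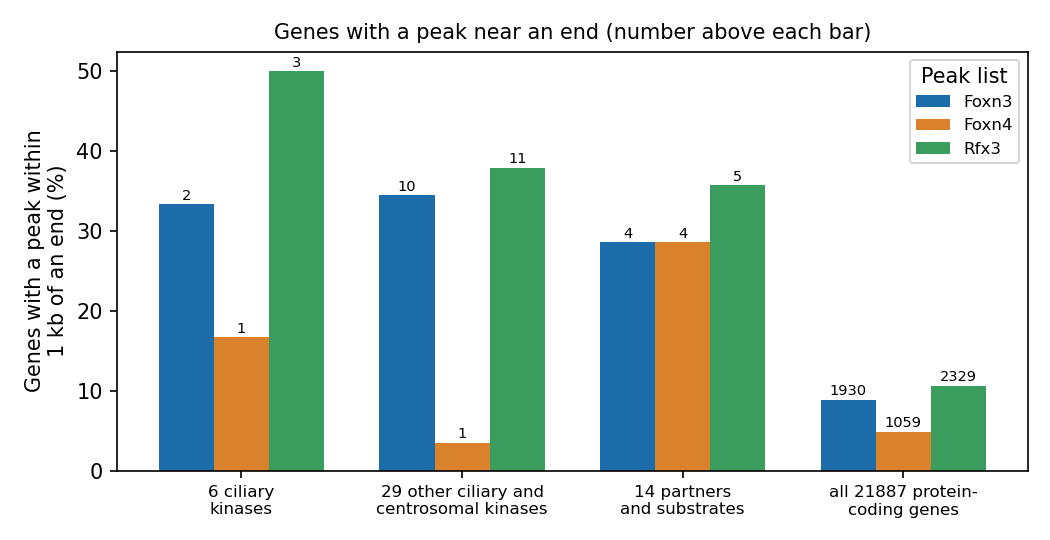
Share of genes (%) with a Foxn3, Foxn4 or Rfx3 peak within 1 kb of an end, for the 6 kinases, 29 other kinases, 14 partners and substrates and all 21887 protein-coding genes, with the number of genes above each bar. Foxn4 is at 1 of the 29 other kinases and at 4 of the 14 partners and substrates.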

How the data were processed

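Peak lists for Foxn3, Foxn4 and Rfx3 from CUT&RUN of embryonic retina were used as deposited. The build is mm10, per the file headers. The submitters' processing notes name cutadapt, Bowtie2, UMI-tools, bedtools and SEACR without role or version; thresholds, use of the IgG libraries and pooling are not given in the sources used here. The value in each list is a signal that the authors deposited as a score per peak, with unstated scaling, and it served only to rank peaks within a list. Total counts per library are not given in these lists, so the depth is unknown.

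Genes were the protein-coding entries on chromosomes 1 to 19, X and Y of a RefSeq table of GRCm38.p6, and starts of transcription came from its promoter table, which holds 17492 of these genes. Peak positions are midpoints, counted from 1, and peaks overlapping by at least 1 bp were called shared. The rank of a peak is the percentage of its list with a lower score. Its 95% Wilson interval treats the list as a sample, although the rank in the deposited list is exact. The 6 kinases, the pathway lists and the motifs were chosen with earlier results of these data known. Named were the 6 genes, pathway genes with gene-end peaks in every list or in a single list, and the 2 genes nearest in rank to each bound kinase; a pathway gene that this rule selects is counted but not reported here by name. Invs, Nek11 and Stk36 were named in addition to this rule. Comparisons are descriptive, with no tests. Alternatives were distances, flanks, overlap rules, score and width minimums, ranking bases and motif strictness. Interval matching and motif search were checked on simulated data (Python 3.11.15, pandas 2.3.3, SciPy 1.17.1).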

Additional observations from a re-analysis of the deposited data

How the results depend on the processing

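Of 68 values recomputed under alternatives, 54 stayed within 1.5 times the reported count or within the interval of the reported rank. Both bounds served as set margins, and neither measures replicate spread. An unchanged count need not mean the same gene: 1 gene held an X-box without a mismatch and 1 held GTTGCC, but these were Mok and Cdk20. The gene-end counts for the 6 genes (2, 1 and 3 for Foxn3, Foxn4 and Rfx3) were the same at 500 bp and 2 kb and by nearest base. They were also the same with peaks at or above the median score, with peaks of at least 150 bp and at starts of transcription only. The tightened rules could not lower them, since every peak lay within 274 bp of an end, was at least 351 bp wide and ranked at 57.4% or higher. The check at starts covered 5 of the 6 genes, because Nek1 has no start in the promoter table. With a 25 kb flank, 4 genes had a Foxn3 peak. Requiring midpoints within 100 bp left 2 of the 4 overlapping pairs of peaks. Ranked against gene-end peaks only, Cdk20 stood at 95.1% for Foxn3 and 85.8% for Rfx3, and Mok at 98% for Rfx3. Ranked by score divided by width, Cdk20 stood at 91.5% for Foxn3, Mok at 97.9% for Rfx3 and Mak at 63.2% for Rfx3. With peaks at or above the median score, 0 of the other kinases had Foxn4 and 7 had Rfx3, and 2 partners had Foxn4. At 2 kb, 7 partners had Foxn3 and 8 had Rfx3. The shares of all protein-coding genes were not computed under these alternatives to the distance, flank, score and width rules. X-box matches with up to 1 mismatch were found in 2 genes. The count changes follow from the rule that was loosened or tightened; the cause of the rank changes was not tested. Replicates could not be left out, and no paired analysis was possible because each antibody has a single list and no test was made.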

Other observations

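The surroundings of the 6 genes, taken as the gene body and 500 kb on each side, were counted after the lists had been seen. The counts include a gene's own peaks, and the medians over all protein-coding genes were 1 Foxn3, 1 Foxn4 and 2 Rfx3 peaks. Mok had 6 Foxn3 and 6 Rfx3 peaks, its own included, more than around 86.6% and 79.4% of protein-coding genes, and 1 Foxn4 peak. Cdk20 had 1 Foxn3 peak, 2 Foxn4 and 2 Rfx3 peaks in the same span, so its own Foxn3 peak was the only one there. Around Nek1 there were 4 Foxn4 peaks, more than around 86.2% of genes, 1 Rfx3 peak and 0 Foxn3 peaks; 31.4% of genes had 0 Foxn3 peaks in such a span. Nek8 also had 4 Foxn4 peaks nearby, with 2 Foxn3 and 3 Rfx3 peaks, none of them within 10 kb of the gene. Ttbk2 had 2 Foxn3 and 4 Rfx3 peaks and 0 Foxn4 peaks, as did 33.4% of genes for Foxn4. Mak had 2 Foxn3, 1 Foxn4 and 3 Rfx3 peaks.

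The promoter windows differed in base composition. Guanine and cytosine made up 43.3% of the window at the bound start of Mak and 45% at its second start, 57.7% at Cdk20, 54.3% at Mok, 57.7% at Nek8, and 57.3% and 66.3% at the 2 starts of Ttbk2.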
